A study of Mus musculus with 12 samples.

Results

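Setd2 encodes the methyltransferase that trimethylates lysine 36 of histone H3, and the comparison described here asks for which genes the change that goes with Setd2 loss was itself different in liver tumors and in normal liver. For each gene it is a difference of 2 differences, called the interaction: knockout minus wild type in tumors, less knockout minus wild type in normal liver, with the mean of each group taken on the log2(FPKM + 1) scale (FPKM is the fragment count scaled to transcript length and library size). A positive value means that the knockout effect was more upward in tumors than in normal liver, and a negative value that it was more downward. All 12 libraries of the series entered it, in 4 groups of 3, and 11671 of the 24553 gene entries had an FPKM of 1 or more in at least 3 libraries and were tested.

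The 4 groups were wild-type normal liver (WT liver; Setd2-WT-NT in the titles), Setd2 knockout normal liver (KO liver; Setd2-cKO-NT), wild-type liver tumor (WT tumor; Setd2-WT-T) and Setd2 knockout liver tumor (KO tumor; Setd2-cKO-T). Normal livers came from male mice aged 8 months that had received no carcinogen. Tumors came from mice that had been injected as males aged 2 weeks with diethylnitrosamine (DEN) at 25 mg/kg and were killed after 8 months, so tumor tissue and DEN treatment cannot be told apart. The labels give no strain, no Cre driver and no deleted exons, do not say which cells lost the gene although the titles read cKO, and do not say whether 2 libraries of a group could share an animal. P-values therefore measure the spread between these libraries, part of which may be technical.

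Histone H3 lysine 36 trimethylation follows RNA polymerase II over transcribed gene bodies and is read by factors that act in splicing, DNA repair and the restraint of cryptic transcription. DEN is converted by pericentral cytochrome P450 enzymes into a DNA alkylating agent, and the tumors it starts keep many hepatocyte functions, among them sterol, fatty acid and bile acid synthesis and the secretion of acute phase proteins. Hepatocytes also react to cytokines, metals, oxidants and interferons with sets of inducible genes, and several of these sets are described below.

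Sequencing depth is unknown because the files hold FPKM values only. KO tumors were the most uneven group, with a median SD of 0.306 on the log2 scale against 0.16 in WT livers, 0.17 in KO livers and 0.188 in WT tumors. Summed FPKM of 30 hepatocyte identity genes was 37690 to 40069 in WT livers, 34636 to 39662 in KO livers and 40634 to 46902 in WT tumors. In KO tumors 1, 2 and 3 it was 24164, 18971 and 35114. Hepatocyte transcripts were thus present in every library, at a lower level in KO tumors 1 and 2. The part of this difference in the interaction was not tested. Setd2 itself had an FPKM of 4.84, 3.84 and 4.7 in WT livers, 1.66, 1.93 and 1.32 in KO livers, 4.4, 3.61 and 4.07 in WT tumors and 3.14, 2.18 and 1.9 in KO tumors. It was lower in all KO libraries than in any WT library of the same tissue, and its own interaction did not pass the test (0.48 ± 0.23, adjusted p = 0.241). Values after ± are standard errors from limma throughout.

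The interaction passed an adjusted p of 0.05 for 243 genes, 2.08% of those tested. It was positive for 134 (1.15%) and negative for 109 (0.934%). An unadjusted p below 0.05 was found for 2603 of the 11671 genes, the share to set beside counts of this kind in the lists below. The median interaction over all tested genes was 0.022, with -0.72 at the lowest decile and 0.78 at the highest, and the median SE was 0.28. The median was 1.51 among the positive calls and -1.38 among the negative ones. Knockout effects in normal liver and in tumors had opposite signs for 217 of the 243 called genes (89.3%) and for 41.8% of all tested genes, a contrast that the selection for a large interaction favors by construction. Across all 11671 genes the 2 knockout effects, which share no library, had a Pearson r of 0.164 and a Spearman rho of 0.201, a description in which genes are not independent replicates.

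**Figure D1:**
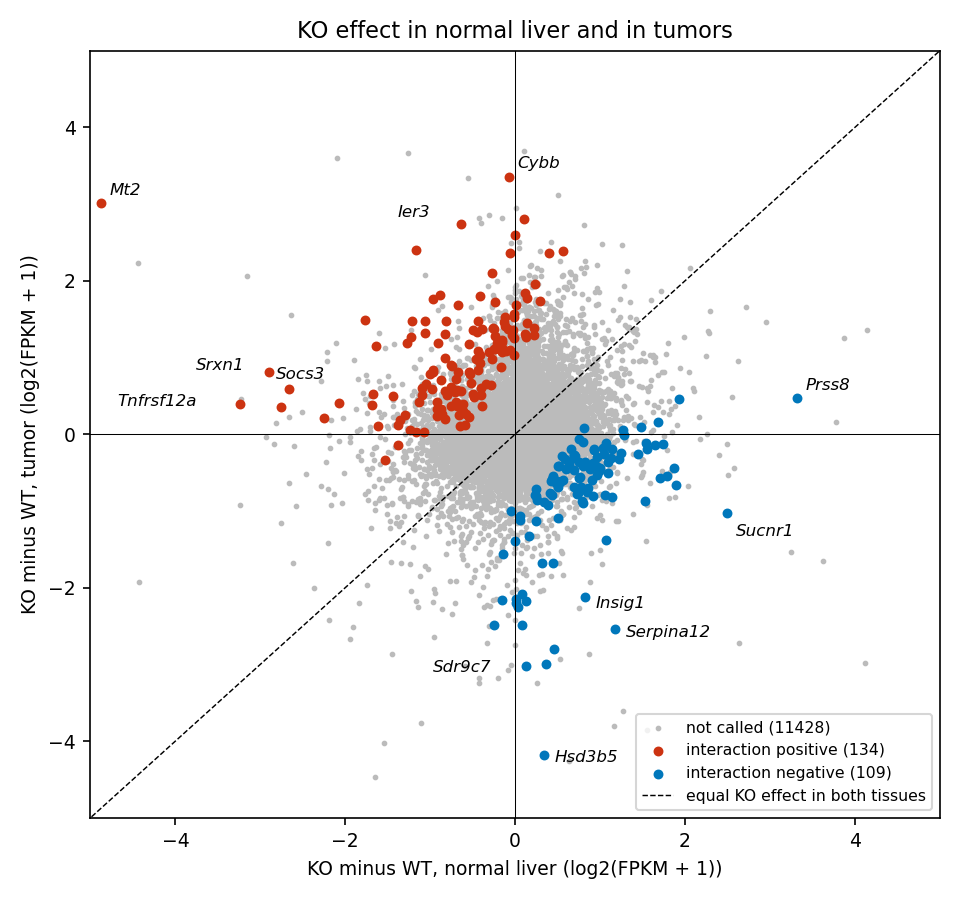
Knockout effect in normal liver (x axis) against knockout effect in tumors (y axis), both KO minus WT on the log2(FPKM + 1) scale, for 11671 genes. The 134 genes with a positive interaction lie above the diagonal and the 109 with a negative interaction below it, mostly in the quadrants where the 2 effects have opposite signs.

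Which effect carried the interaction differed between genes. In the same 12-library model, 1144 genes (9.8%) changed between KO and WT liver and 1017 (8.71%) between KO and WT tumors. Of the 134 positive genes, 72 were higher in KO than in WT tumors with no liver effect called, 48 were lower in KO than in WT liver with no tumor effect called, 10 passed in both tissues in opposite directions and 4 passed in neither. Taken by direction over all tested genes, 4.52% rose and 5.29% fell in KO liver, and 5.97% rose and 2.74% fell in KO tumors. Of the 109 negative genes, 62 were higher in KO liver alone, 36 were lower in KO tumors alone, 6 passed in both tissues and 5 in neither. These splits follow from separate thresholds and from a fit with a variance shared by all groups, although KO tumors were the most uneven. With a separate weight for each group, 2846 genes were called between KO and WT liver and 327 between KO and WT tumors. Whether the splits hold with these weights, or differ between positive and negative genes, was not tested.

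A simpler description asks which of the 4 groups stood farthest from the other 3. Among positive genes this was the KO tumor, standing high, for 72, the WT liver, standing high, for 30, the KO liver, standing low, for 24 and the WT tumor, standing low, for 8. Among negative genes it was the KO liver, standing high, for 43, the KO tumor, standing low, for 28, the WT liver, standing low, for 21 and the WT tumor, standing high, for 17. All 3 libraries of that group lay outside the other 9 for 196 of the 243 genes (80.7%), against 30.9% of all tested genes, and this share is again raised by the selection.

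**Figure D2:**
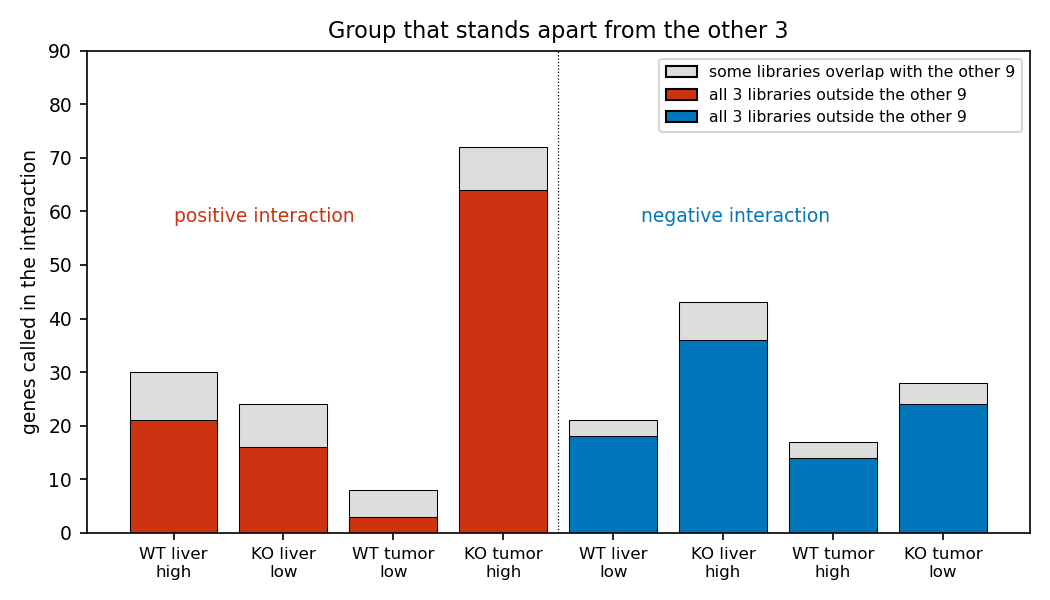
Number of genes called in the interaction (y axis) by the group that stood farthest from the other 3 and its direction (x axis). The colored part of each bar counts genes whose 3 libraries in that group all lay outside the other 9, such as 64 of the 72 genes in which KO tumors stood high.

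Counts of calls depended on single libraries. Leaving out 1 library gave 7 calls without WT liver 2, 10 without WT liver 3, 9 without KO liver 3, 22 without KO liver 2, 18 without WT tumor 3 and 29 without WT tumor 2. It gave 96 without KO tumor 1, 146 without KO tumor 2, 228 without WT liver 1, 272 without KO liver 1, 370 without WT tumor 1 and 1368 without KO tumor 3. The sign of the interaction stayed the same in all 12 of these fits for each of the 243 genes, while the call itself held in all 12 for 5 genes and in a median of 4 fits. The kept sign is favored by construction, because the genes were selected for a large interaction in the same libraries. Rescaling each library to a common sum left 115 calls, 66.1% of them positive against 55.1% in the main result, and moved the median of all genes from 0.022 to 0.137.

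The call held in every such fit for 5 genes, described first. These fits kept the entries chosen with all 12 libraries. Abcc12 and Mst1r had an FPKM of 1 or more only in the 3 libraries of 1 group. They were therefore tested only through the group where they were high, and their persistence is partly built in. Ier3, an immediate early gene that modulates apoptosis and NF-kB signaling, had an FPKM of 3.52, 2.35 and 3.3 in WT livers, 2.22, 1.15 and 1.52 in KO livers, 3.03, 2.6 and 3.33 in WT tumors and 35.2, 21.3 and 22.1 in KO tumors. The KO tumors stood far above the other 9 libraries, the KO livers were lowest, and WT livers and WT tumors overlapped. Its interaction was 3.37 ± 0.3 (adjusted p = 0.00253), the lowest adjusted p of all genes, and ranged from 3.15 to 3.53 over the 12 fits. Abcc12, a member of the ABC transporter family (chromosome 8, 86482260 to 86580686, GRCm38), had an FPKM of 0.067, 0.09 and 0.11 in WT livers, 0.32, 0.18 and 0.022 in KO livers, 0.45, 0.84 and 0.36 in WT tumors and 12.9, 11.1 and 6.33 in KO tumors. It was near the lower end of the FPKM scale in both kinds of liver and highest in all KO tumors, with an interaction of 2.71 ± 0.32 (adjusted p = 0.012).

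Socs3, the cytokine-induced inhibitor of JAK-STAT signaling, showed the other form of a positive interaction. Its FPKM was 20.9, 23.3 and 33 in WT livers, 5.01, 3.71 and 1.5 in KO livers, 4.32, 5.14 and 3.39 in WT tumors and 6.53, 5.99 and 8.32 in KO tumors. WT livers lay above all other libraries, KO livers and WT tumors overlapped, and KO tumors lay above both of these groups. The interaction was 3.26 ± 0.41 (adjusted p = 0.0146), made of a fall in KO liver by 2.67 ± 0.29 (adjusted p = 0.00238) and a tumor difference that did not pass (0.59 ± 0.29, adjusted p = 0.237). Ier3 and Socs3 each occur more than once as a name in the tables, and the values are those of the entry with the highest mean.

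The negative genes called in all 12 fits were Prss8 and Mst1r. Prss8 encodes the membrane-anchored serine protease prostasin (chromosome 7, 127925716 to 127930104, GRCm38), and its FPKM was 1.75, 1.23 and 1 in WT livers, 25.3, 16.4 and 25.9 in KO livers, 11.5, 7.47 and 6.83 in WT tumors and 10.4, 10.6 and 16 in KO tumors. WT livers were the lowest libraries and KO livers the highest, with both kinds of tumor in between and overlapping. Its interaction of -2.85 ± 0.34 (adjusted p = 0.012) therefore came from a rise in KO liver of 3.32 ± 0.24 (adjusted p = 0.000281) that had no counterpart past the threshold in tumors (0.48 ± 0.24, adjusted p = 0.25). Mst1r encodes the receptor tyrosine kinase RON, which binds macrophage-stimulating protein. It was named, like Nxn, Hpcal1 and Polr1a below, after its values were seen.

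Mst1r had an FPKM of 0.069, 0.022 and 0.055 in WT livers, 0.057, 0.15 and 0.13 in KO livers, 5.36, 3.38 and 3.56 in WT tumors and 0.078, 0.29 and 0.20 in KO tumors. Only the WT tumors were above an FPKM of 1, and the interaction was -2.17 (adjusted p = 0.00654). Nxn, a thioredoxin-family oxidoreductase, had the same order with less contrast, at 8.73, 6.77 and 9.79 in WT tumors, 2.03, 2.35 and 1.45 in KO tumors and 0.48 to 1.55 in the livers. Its interaction was -2.0 (adjusted p = 0.0146), called in 11 of the 12 fits. Polr1a, the largest subunit of RNA polymerase I, showed a positive interaction of 1.42 (adjusted p = 0.0146), also called in 11. WT livers had 6.70, 6.64 and 6.52, KO livers 3.95, 3.36 and 3.88, WT tumors 2.82, 4.31 and 3.55 and KO tumors 6.74, 6.45 and 6.23, so that KO tumors and WT livers overlapped at the higher level and KO livers and WT tumors at the lower one. Hpcal1, a neuronal calcium sensor family gene, had 18.2, 20.0 and 18.0 in KO tumors and 6.89 to 9.09 in the other 9 libraries, with an interaction of 1.16 (adjusted p = 0.0146).

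The largest positive interactions included stress-inducible genes that were high in WT livers. Mt2, the metallothionein 2 gene, whose product binds zinc and copper, had the largest value of all (chromosome 8, 94172664 to 94173568, GRCm38). Its FPKM was 1359, 6266 and 7319 in WT livers, 1580.3, 37.4 and 39.5 in KO livers, 355, 115 and 164 in WT tumors and 709, 1392 and 3652 in KO tumors. WT liver 1 and KO liver 1 lay close together, so the 2 liver groups overlapped, and KO livers 2 and 3 were the lowest libraries. KO tumors all lay above WT tumors. The interaction was 7.89 ± 1.8 (adjusted p = 0.0499), just inside the threshold, and the call held in 4 of the 12 fits without 1 library (6.99 to 9.67). Its neighbor Mt1, named after its values were seen, had an FPKM of 1312, 4755 and 5825 in WT livers, 1337, 52.2 and 49.4 in KO livers, 681, 147 and 256 in WT tumors and 883, 981 and 3062 in KO tumors, and its interaction did not pass (6.66 ± 1.63, adjusted p = 0.0589).

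The sequence before the start of both metallothionein genes is shown because these genes are textbook targets of the metal-responsive factor MTF1, which binds metal response elements. Letters searched were TGCACNC or TGCGCNC on either strand in the 250 bases before each start in RefSeq (GRCm38.p6), and capitals mark matches. The motifs and the promoters printed here and below were chosen after the matches had been seen. Mt2 lies on the plus strand at chr8:94172368-94172617 and Mt1 on the plus strand at chr8:94178839-94179088.
Mt2: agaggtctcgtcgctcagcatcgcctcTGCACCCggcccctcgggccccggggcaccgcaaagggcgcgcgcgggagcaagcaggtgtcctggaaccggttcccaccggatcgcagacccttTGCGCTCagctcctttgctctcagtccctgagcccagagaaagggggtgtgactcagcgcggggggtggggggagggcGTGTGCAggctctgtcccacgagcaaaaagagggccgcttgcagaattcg
Mt1: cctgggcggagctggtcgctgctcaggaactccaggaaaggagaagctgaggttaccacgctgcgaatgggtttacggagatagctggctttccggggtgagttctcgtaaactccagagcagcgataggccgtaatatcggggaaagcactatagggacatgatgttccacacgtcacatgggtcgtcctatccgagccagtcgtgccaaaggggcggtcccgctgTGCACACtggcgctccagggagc
Mt2 held 3 matches, starting 223, 128 and 50 bases before its start, and Mt1 held 1, starting 23 bases before. The letters are frequent, since 21.4% of the 32851 promoters in the table hold them. By gene they were found for 30.3% of the positive calls with an entry, 36.2% of the negative calls and 33.9% of the tested genes.

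Other genes with a large positive interaction were lower in KO than in WT liver and showed no tumor effect past the threshold. Tnfrsf12a encodes the receptor of the cytokine TWEAK, and its FPKM was 55.5, 168 and 77.6 in WT livers, 9.24, 10.1 and 6.86 in KO livers, 86, 63.9 and 65.2 in WT tumors and 144, 93.2 and 60.9 in KO tumors. KO livers were the only low group, and WT livers, WT tumors and KO tumors overlapped. Its interaction was 3.63 ± 0.54 (adjusted p = 0.0189). Ppl, which encodes the desmosome-associated protein periplakin, had an FPKM of 11.2, 26.5 and 15.3 in WT livers, 1.21, 1.81 and 1.83 in KO livers, 3.65, 4.12 and 5.15 in WT tumors and 12.3, 3.18 and 4.48 in KO tumors. WT livers were highest apart from an overlap with KO tumor 1, KO livers were the lowest group, and the interaction was 3.11 ± 0.55 (adjusted p = 0.0278). Slc37a1, which encodes a sugar phosphate carrier of the endoplasmic reticulum, had an interaction of 2.79 ± 0.63 (adjusted p = 0.0499) with a fall in KO liver by 1.63 ± 0.45 (adjusted p = 0.0455), although KO liver 1, at 2.96, overlapped with tumors.

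Fkbp5, a glucocorticoid-inducible co-chaperone of steroid receptors, was split within the KO livers. Its FPKM was 44.5, 37.4 and 56.8 in WT livers, 35.3, 8.36 and 6.59 in KO livers, 23.2, 24.2 and 21.8 in WT tumors and 76.8, 54.7 and 70.3 in KO tumors. KO liver 1 lay near the WT livers and KO livers 2 and 3 far below, as for Mt2, and KO tumors lay above WT tumors. The interaction was 3.26 ± 0.64 (adjusted p = 0.0365), made of a fall in KO liver by 1.76 ± 0.46 (adjusted p = 0.0374) and a tumor difference of 1.49 ± 0.46 (adjusted p = 0.0677). Txnrd1, which encodes cytosolic thioredoxin reductase, fell in KO liver by 0.92 ± 0.19 (adjusted p = 0.0187) and had an interaction of 1.34 ± 0.27 (adjusted p = 0.0376). Prox1, a transcription factor of hepatocyte identity, also belongs here. Of 30 hepatocyte identity genes tested, 14 had a positive and 16 a negative interaction with a median of -0.19, and 2 were called, both positive. Positive calls made up 1.15% of all tested genes. When each library was rescaled to a common sum, the interaction of Prox1 did not pass in limma (adjusted p = 0.0548). Prox1 had an FPKM of 24, 22.8 and 29.2 in WT livers, 9.98, 9.86 and 9.06 in KO livers, 19.1, 14.1 and 13.3 in WT tumors and 19.6, 21.7 and 14.5 in KO tumors, with KO livers below all other libraries and an interaction of 1.55 ± 0.25 (adjusted p = 0.0238).

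For some genes both effects passed in opposite directions. The 6 positive genes with the largest smaller effect were Tes, Slc35d1, Tns1, Ets2, Ildr2 and Myh9. Slc35d1, a nucleotide sugar transporter of the endoplasmic reticulum, had an FPKM of 37.9, 46.7 and 35 in WT livers, 23.7, 16.8 and 19.1 in KO livers, 17.6, 22.3 and 24 in WT tumors and 36.1, 43.4 and 37 in KO tumors. WT livers and KO tumors shared the higher level and KO livers and WT tumors the lower level. Its interaction was 1.82 ± 0.25 (adjusted p = 0.0165), made of -0.97 ± 0.17 (adjusted p = 0.0121) in liver and 0.84 ± 0.17 (adjusted p = 0.0166) in tumors, and it was called in 10 of the 12 fits. Ets2, a transcription factor downstream of growth factor signaling, had an FPKM of 12.7, 17.5 and 17 in WT livers, 9, 6.18 and 7.61 in KO livers, 12.2, 10.5 and 12.7 in WT tumors and 17.1, 22.9 and 24.9 in KO tumors, with KO livers below the other 9 libraries and KO tumors overlapping with WT livers. Its interaction was 1.77 ± 0.26 (adjusted p = 0.0187).

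Tes, Tns1 and Myh9 encode proteins of the actin cytoskeleton and its adhesions: testin, tensin 1 and the heavy chain of non-muscle myosin IIA. Tns1 had an FPKM of 36.8, 35.4 and 33.2 in WT livers, 21.4, 22 and 15.4 in KO livers, 16.2, 21.4 and 18.1 in WT tumors and 29.6, 44.5 and 40.9 in KO tumors, and an interaction of 1.82 ± 0.26 (adjusted p = 0.0187). Myh9 had an FPKM of 46.5, 65.6 and 59.4 in WT livers, 41.6, 23.6 and 38.1 in KO livers, 55.3, 60.0 and 60.4 in WT tumors and 103, 124 and 102 in KO tumors, with all KO tumors above the other libraries and KO livers lowest, and an interaction of 1.62 ± 0.3 (adjusted p = 0.0296). Tes had an interaction of 2.5 ± 0.49 (adjusted p = 0.0357). Ildr2, an immunoglobulin-like domain receptor gene, had an interaction of 1.66 ± 0.27 (adjusted p = 0.0235), and its WT tumors lay below the other 9 libraries. On the negative side Tmem25, Chac2 and Cnot8 passed in both tissues and met the same filters on name and level.

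KO tumors alone stood high for the largest set of positive genes. Cybb, the heme-binding subunit of the phagocyte NADPH oxidase (chromosome X, 9435252 to 9487771, GRCm38), had an FPKM of 3.11, 3.65 and 2.61 in WT livers, 3.17, 2.92 and 2.66 in KO livers, 7.45, 3.21 and 3.74 in WT tumors and 84.5, 82 and 24.2 in KO tumors. KO tumors lay above all other libraries by a wide margin, KO tumor 3 less so, and the livers of both genotypes overlapped. The interaction was 3.42 ± 0.58 (adjusted p = 0.0275). Cd14, the co-receptor for bacterial lipopolysaccharide, had an FPKM of 4.82, 8.26 and 13.8 in WT livers, 6.21, 2.66 and 1.65 in KO livers, 7.7, 12.3 and 7.26 in WT tumors and 57.2, 47.7 and 49 in KO tumors, again with the KO tumors alone at a high level. Its interaction was 3.57 ± 0.54 (adjusted p = 0.0192). Mvp, which encodes the major vault protein, had an interaction of 2.7 ± 0.46 (adjusted p = 0.0275) with 63.5 to 120.5 in KO tumors and 15.3 to 58.2 elsewhere.

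Cybb and Cd14 are also expressed by macrophages, so markers of that cell type are given beside them. Of 20 macrophage and Kupffer cell markers tested, 18 had a positive interaction and 2 a negative one, and the median was 1.32. None was called by limma (lowest adjusted p = 0.0554), and 13 had an unadjusted p below 0.05, against 2603 of all 11671 tested genes. Summed FPKM of the 20 markers was 297 to 455 in WT livers, 286 to 401 in KO livers, 226 to 567 in WT tumors and 800.0 to 1092 in KO tumors, and none was at 0 in all libraries of a group. In tumors 11 of the 20 rose in KO relative to WT, against 5.97% of all tested genes. The members with the lowest adjusted p were Fcgr1, an activating Fc receptor gene, with an interaction of 1.28 ± 0.31 (adjusted p = 0.0554), Trem2, a lipid-sensing receptor gene, with 1.45 ± 0.35 (adjusted p = 0.0589), the lysosomal protease gene Ctss with 1.93 ± 0.48 (adjusted p = 0.0606) and Mpeg1 with 1.01 ± 0.26 (adjusted p = 0.0645). All 4 rose in KO tumors, Fcgr1 by 1.29 ± 0.22 (adjusted p = 0.00787), Trem2 by 1.64 ± 0.25 (adjusted p = 0.00604), Ctss by 1.94 ± 0.34 (adjusted p = 0.00921) and Mpeg1 by 0.79 ± 0.18 (adjusted p = 0.0249). Cd68, a lysosomal glycoprotein of macrophages, rose in KO tumors by 1.71 ± 0.31 (adjusted p = 0.0104) and had an interaction of 1.63 ± 0.44 (adjusted p = 0.0751). Adgre1, which encodes the macrophage surface protein F4/80, had an interaction of 0.98 ± 0.45 (adjusted p = 0.224), and Clec4f, a marker of Kupffer cells, -0.09 ± 1.32 (adjusted p = 0.978). In bulk tissue a different number of cells of a type and a different amount of RNA per cell cannot be told apart, and the part of macrophages in these results was not tested.

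**Figure D3:**
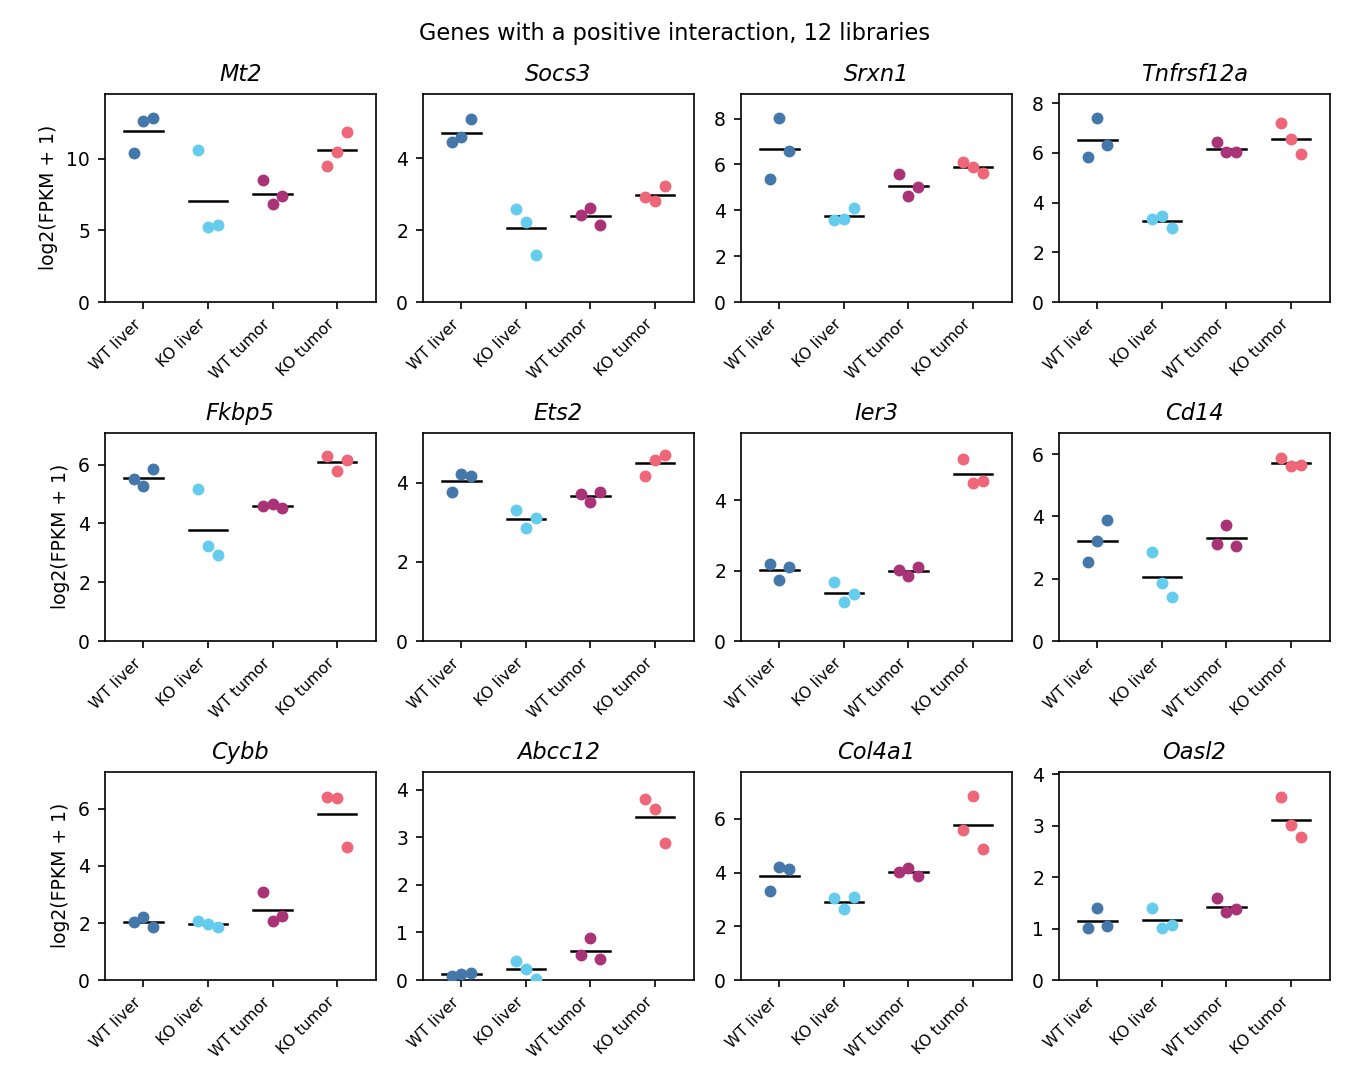
Log2(FPKM + 1) (y axis) of 12 genes with a positive interaction in each library (points) of the 4 groups (x axis), with group means as bars. Socs3 and Tnfrsf12a change between the liver groups, Ier3, Cd14, Cybb, Abcc12, Col4a1 and Oasl2 stand high in KO tumors alone, and KO liver 1 of Mt2 and Fkbp5 lies apart from the other 2 KO livers.

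Extracellular matrix genes belong to the same pattern. Of 25 tested, 22 had a positive interaction, 4 were called (Col5a2, Thbs1, Col4a1 and Col1a1) and none was called negative, with a median of 1.34. The median knockout effect was 0.17 in liver and 1.5 in tumors, where 20 of the 25 rose in KO relative to WT. Over all tested genes 1.15% had a positive call in the interaction and 5.97% rose in KO tumors. Col1a1, a chain of fibrillar collagen I, had an FPKM of 1.16, 2.23 and 0.7 in WT livers, 1.09, 1.46 and 1.31 in KO livers, 3.78, 5.04 and 3.94 in WT tumors and 33.2, 60.1 and 14.2 in KO tumors. All KO tumors were above the other 9 libraries, and the interaction was 2.6 ± 0.57 (adjusted p = 0.0449), called in 1 of the 12 fits without 1 library. Col4a1, a chain of basement membrane collagen IV, had an FPKM of 9.07, 17.3 and 16.5 in WT livers, 7.2, 5.2 and 7.53 in KO livers, 15.2, 16.8 and 13.6 in WT tumors and 47, 114 and 28.6 in KO tumors, with KO tumors highest and KO livers lowest, and an interaction of 2.73 ± 0.57 (adjusted p = 0.0417). Col5a2, a chain of collagen V, had an interaction of 1.55 ± 0.22 (adjusted p = 0.0181), and Thbs1, the matricellular protein thrombospondin 1, had an interaction of 1.92 ± 0.33 (adjusted p = 0.0275).

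Collagens are made mainly by stellate cells and myofibroblasts in liver. Of 11 markers of these cells, 5 had a positive and 6 a negative interaction with a median of -0.29. None was called by limma, and 2 had an unadjusted p below 0.05, against 2603 of all 11671 tested genes. Summed FPKM over the 13 markers in the table, 2 of them not tested, was 91.2 to 138 in WT livers, 147 to 258 in KO livers, 116 to 133 in WT tumors and 138 to 341 in KO tumors, with none at 0 throughout a group. Acta2, the smooth muscle actin of activated stellate cells, had an interaction of 0.78 ± 0.69 (adjusted p = 0.533). The part of these cells in the collagen values was not tested.

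Immediate early and AP-1 genes are switched on within minutes by growth factors and stress. Of 19 tested, all 19 had a positive interaction, against 51.8% of all tested genes, and the median was 1.74, the largest of the 35 lists. The call was made for 3, Ier3, Klf6 and Fosl2, against 1.15% of all tested genes called positive. Klf6, a zinc finger transcription factor, had an FPKM of 3.62, 6.59 and 9.43 in WT livers, 2.14, 2.38 and 1.75 in KO livers, 7.49, 3.85 and 7.02 in WT tumors and 14.5, 13 and 31.5 in KO tumors, with KO tumors above all other libraries, KO livers below them and an interaction of 2.69 ± 0.51 (adjusted p = 0.0342). Fosl2, a Fos family subunit of AP-1, had an FPKM of 2.97, 3.79 and 5.97 in WT livers, 2.4, 1.06 and 1.38 in KO livers, 1.39, 2.32 and 1.55 in WT tumors and 2.85, 3.11 and 5.58 in KO tumors and an interaction of 1.79 ± 0.39 (adjusted p = 0.0445). The best known members varied more between libraries and did not pass: Jun had an FPKM of 52.9, 13.8 and 32 in WT livers, 6.8, 12.4 and 8 in KO livers, 12.9, 8.56 and 23.3 in WT tumors and 20.5, 26.6 and 84.6 in KO tumors and an interaction of 2.93 ± 0.81 (adjusted p = 0.0772). Junb had an interaction of 2.23 ± 0.61 (adjusted p = 0.0751), Fos 2.87 ± 1.23 (adjusted p = 0.2) and Atf3 2.05 ± 0.86 (adjusted p = 0.192).

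NF-kB response genes and chemokines are induced by inflammatory cytokines. The interaction was positive for 20 of 21 tested members with a median of 0.92, and Tnfrsf12a and Il1b were called. Over all tested genes 51.8% were positive and 1.15% were called positive. Il1b, the gene of the cytokine interleukin 1 beta, had an FPKM of 6.67, 4.51 and 6.99 in WT livers, 3.6, 3.21 and 2.13 in KO livers, 2.35, 0.88 and 1.15 in WT tumors and 5.36, 6.18 and 3.43 in KO tumors. WT tumors were lowest apart from an overlap with KO liver 3, and the interaction was 2.13 ± 0.37 (adjusted p = 0.0275), with 1.3 ± 0.26 (adjusted p = 0.0151) in tumors. Cxcl1, a chemokine that attracts neutrophils, had an FPKM of 67.2, 176 and 247 in WT livers, 42.8, 14.2 and 4.49 in KO livers, 35.2, 21.5 and 13.3 in WT tumors and 73.1, 18.7 and 19.9 in KO tumors, with KO livers below WT livers and the 2 kinds of tumor overlapping. Its interaction of 3.69 ± 1.08 (adjusted p = 0.0854) did not pass, nor did that of Lcn2, an iron-siderophore binding protein, at 5.7 ± 1.38 (adjusted p = 0.0569). Lcn2 nevertheless had the KO tumors, at 1377 to 3824, above all other libraries, which ranged from 23.6 to 672.

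Acute phase genes are induced in hepatocytes by interleukin 6 and interleukin 1. Here 21 of 23 had a positive interaction, Socs3 and Lbp were called, and the median of 0.83 came with a median knockout effect of -1.15 in liver and 0.07 in tumors. The shares over all tested genes were 51.8% positive and 1.15% called positive. Lbp, the plasma protein that hands lipopolysaccharide to CD14, had an FPKM of 48.8, 54.7 and 64.8 in WT livers, 61.3, 48 and 33.8 in KO livers, 24.9, 31.1 and 26.1 in WT tumors and 89.8, 66.3 and 64.9 in KO tumors. WT tumors were the only low group, and the interaction was 1.65 ± 0.31 (adjusted p = 0.0335). Saa1 and Saa2, the serum amyloid A genes, spread widely within groups. Saa1 had an FPKM of 260.5, 3458 and 7303 in WT livers, 1419, 277 and 68.7 in KO livers, 66.1, 440.4 and 107 in WT tumors and 326, 384 and 648 in KO tumors, so that WT liver 1 lay among the KO livers, and its interaction of 4.2 ± 1.79 (adjusted p = 0.197) did not pass. Neutrophil markers, 4 of which were tested, had a median interaction of 1.25 with no call by limma. An unadjusted p below 0.05 was found for 1 of them, against 2603 of all 11671 tested genes. Summed FPKM over the 10 neutrophil markers in the table was 7.49 to 31.3, 8.66 to 41.2, 9.41 to 11.1 and 24.2 to 67.2 in WT livers, KO livers, WT tumors and KO tumors. Mpo was at 0 in all WT livers, and the part of neutrophils was not tested.

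NRF2 targets are antioxidant and conjugation genes induced by electrophiles and oxidants. Of 18 tested, 14 had a positive interaction and 5 were called, all positive: Srxn1, Ugdh, Txnrd1, Gsta1 and, named because it completes the count, Nqo1. Over all tested genes 51.8% had a positive interaction and 1.15% a positive call. The list held different patterns. Srxn1, which encodes sulfiredoxin, had an FPKM of 40.6, 263 and 93.9 in WT livers, 10.9, 11.2 and 16.1 in KO livers, 46.4, 23.8 and 31.6 in WT tumors and 68.8, 58.7 and 49 in KO tumors. KO livers were below all other libraries, and the interaction was 3.72 ± 0.73 (adjusted p = 0.0357). Gsta1, a glutathione transferase gene, had an FPKM of 2.63, 6.36 and 3.28 in WT livers, 3.08, 3.01 and 5.15 in KO livers, 11.5, 9.91 and 13.5 in WT tumors and 54.1, 109 and 42.9 in KO tumors, with KO tumors highest, WT tumors next and the livers lowest and overlapping. Its interaction was 2.42 ± 0.49 (adjusted p = 0.0379). Nqo1, a quinone reductase gene, had 80.7, 76.4 and 38.7 in KO tumors, 8.54 to 13.4 in WT tumors and 3.04 to 7.28 in the livers, and an interaction of 1.83 (adjusted p = 0.0402).

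Ugdh, which makes the UDP-glucuronate used in glucuronidation, showed another pattern. Its FPKM was 136, 167 and 175 in WT livers, 121, 117 and 113 in KO livers, 62.3, 69.5 and 80.2 in WT tumors and 135, 132 and 111 in KO tumors. WT tumors were below all other libraries, and KO tumors overlapped with KO livers. The interaction was 1.27 ± 0.22 (adjusted p = 0.0275), with 0.83 ± 0.16 (adjusted p = 0.0112) in tumors. G6pdx, which opens the pentose phosphate pathway and is also an NRF2 target, had a negative interaction that did not pass (-1.06 ± 0.55, adjusted p = 0.278).

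The promoter of Ugdh is shown for its antioxidant response letters and that of Srxn1 for its AP-1 letters. Of the 5 called NRF2 targets, Ugdh and Txnrd1 held the antioxidant response letters searched, and Srxn1, Gsta1 and Nqo1 held no match to these exact letters. The search used TGACNNNGC for the antioxidant response element and TGANTCA for an AP-1 site, on either strand of the same 250 bases. An AP-1 match that reads TGACTCA and is followed by GC meets both. The AP-1 match of Srxn1 nearer the start reads TGAGTCA followed by GC, with G where the antioxidant response letters have C. Whether NRF2 binds there was not tested. Ugdh lies on the minus strand at chr5:65435843-65436092 and is printed with its antioxidant response element matches in capitals. Srxn1 lies on the plus strand at chr2:152105274-152105523 and is printed with its AP-1 matches in capitals.
Ugdh: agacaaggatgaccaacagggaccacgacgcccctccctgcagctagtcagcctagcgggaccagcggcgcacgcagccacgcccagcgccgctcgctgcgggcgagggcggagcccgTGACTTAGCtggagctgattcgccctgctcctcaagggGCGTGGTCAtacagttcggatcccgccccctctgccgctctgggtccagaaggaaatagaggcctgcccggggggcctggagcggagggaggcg
Srxn1: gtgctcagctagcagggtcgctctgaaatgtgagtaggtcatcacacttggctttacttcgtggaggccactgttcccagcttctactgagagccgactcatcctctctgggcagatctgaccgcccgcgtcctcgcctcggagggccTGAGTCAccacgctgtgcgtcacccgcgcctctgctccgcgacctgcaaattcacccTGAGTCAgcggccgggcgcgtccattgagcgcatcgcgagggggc
Matches in Ugdh started 132 and 94 bases before the start, and those in Srxn1 102 and 45 bases before. Antioxidant response letters were present in 10.2% of all promoters in the table and AP-1 letters in 6.75%. By gene, antioxidant response letters were found for 16.2% of positive calls, 16.2% of negative calls and 14.5% of tested genes, and AP-1 letters for 8.08%, 6.25% and 5.76%.

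Interferon response genes encode antiviral effectors and their regulators. The interaction was positive for 31 of 32 tested, with a median of 0.65, and 3 were called: Oasl2, Gbp3 and Xaf1. Median knockout effects were 0.13 in liver and 0.94 in tumors, where 16 of the 32 rose in KO. The shares over all tested genes were 51.8% for a positive interaction, 1.15% for a positive call and 5.97% for a rise in KO tumors. Oasl2, an oligoadenylate synthetase-like gene, had an FPKM of 1.03, 1.64 and 1.06 in WT livers, 1.65, 1.03 and 1.1 in KO livers, 2.02, 1.5 and 1.59 in WT tumors and 10.8, 7.11 and 5.85 in KO tumors. KO tumors were the only high group, and the interaction was 1.68 ± 0.29 (adjusted p = 0.0275). Gbp3, a guanylate-binding GTPase gene, had an FPKM of 1.18, 1.49 and 1.17 in WT livers, 1.42, 1.01 and 0.83 in KO livers, 2.13, 1.63 and 2.39 in WT tumors and 10.4, 5.53 and 6.84 in KO tumors, also with the KO tumors alone at the top, and an interaction of 1.59 ± 0.29 (adjusted p = 0.0278). Xaf1, an interferon-induced inhibitor of XIAP, had an interaction of 1.3 ± 0.29 (adjusted p = 0.0478). When each library was rescaled to a common sum the median was 0.81 and limma called none of the 32. At an unadjusted p below 0.05 there were 14, and in the main fit also 14, against 2603 of all 11671 tested genes there. Irf7, the master regulator of type I interferon genes, and the ubiquitin-like modifier Isg15 rose in KO tumors by 1.9 ± 0.29 (adjusted p = 0.00573) and 1.53 ± 0.27 (adjusted p = 0.00972), with interactions of 1.28 ± 0.4 (adjusted p = 0.102) and 1.23 ± 0.39 (adjusted p = 0.103).

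The promoter of Gbp3, on the plus strand at chr3:142559794-142560043, is shown for the interferon-stimulated response element that interferon-activated factors bind. The letters searched were GAAANNGAAA on either strand, and capitals mark 2 overlapping matches on the other strand, with first bases 45 and 39 before the start. RefSeq lists 2 starts for this gene, and the printed one is the start whose window holds them.
Gbp3: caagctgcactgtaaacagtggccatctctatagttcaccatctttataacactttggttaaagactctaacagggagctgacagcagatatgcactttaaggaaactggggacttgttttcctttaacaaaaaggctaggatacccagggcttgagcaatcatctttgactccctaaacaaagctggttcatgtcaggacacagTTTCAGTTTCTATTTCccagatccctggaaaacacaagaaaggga
These letters were present in 2.98% of all promoters in the table. By gene they were found for 6 of 99 positive calls with an entry (6.06%), 1 of 80 negative calls (1.25%) and 3.21% of tested genes.

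**Figure D4:**
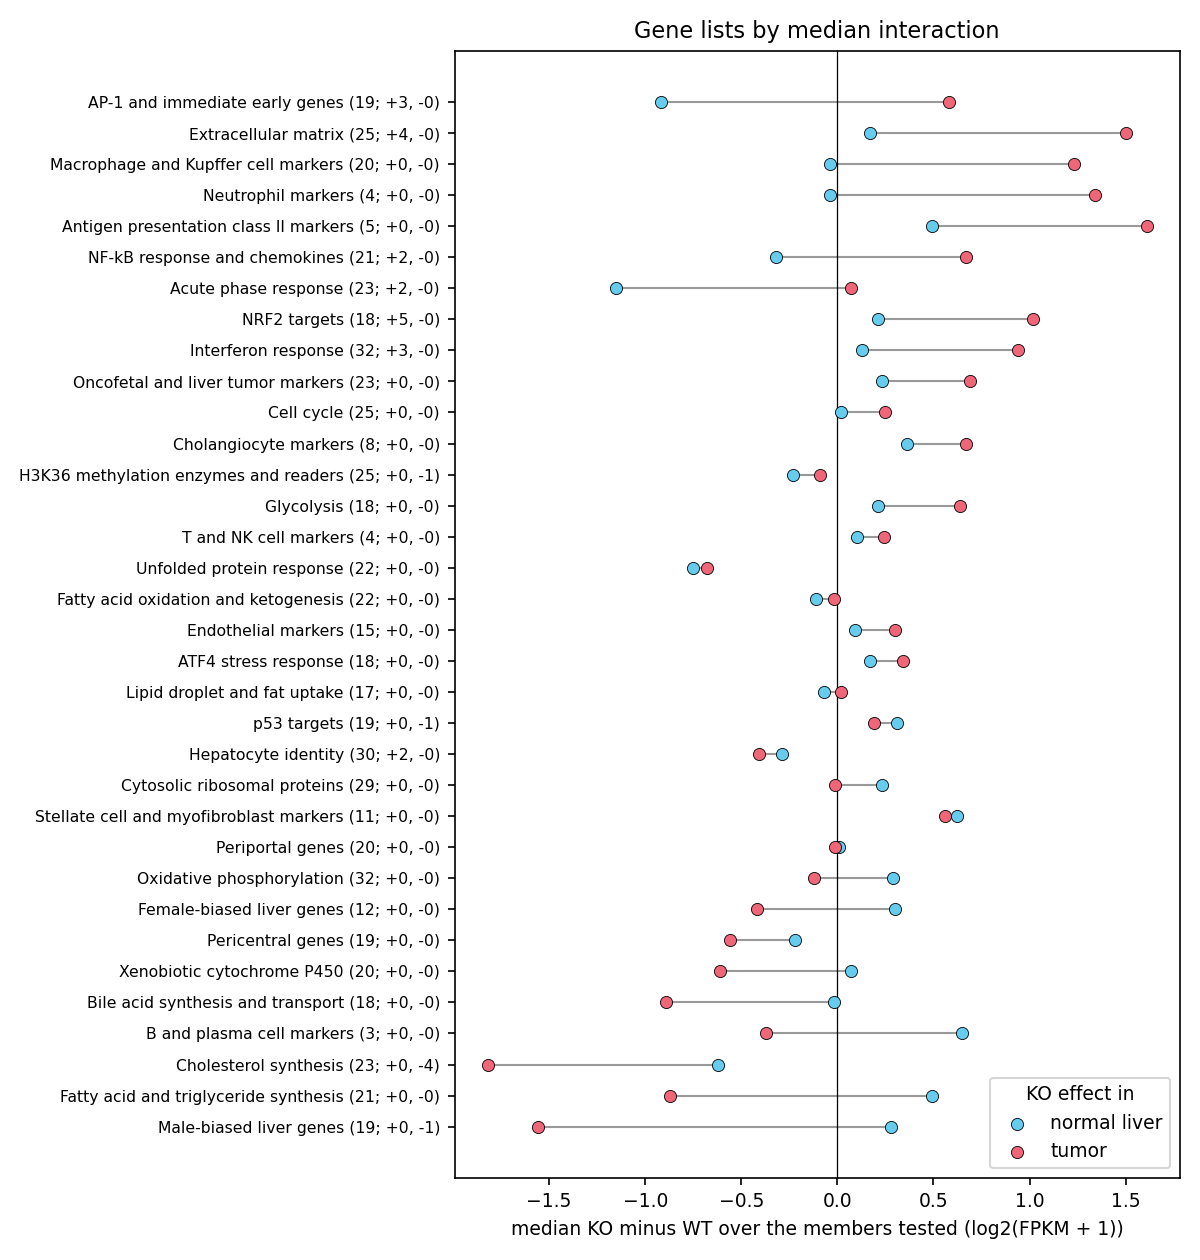
Median knockout effect in normal liver (blue) and in tumors (red) over the tested members of each gene list, on the log2(FPKM + 1) scale (x axis), ordered by the median interaction. Labels give the members tested and how many were called positive and negative. The AP-1 list has the largest positive median interaction (1.74) and the male-biased liver genes the largest negative one (-1.42).

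Cholesterol synthesis was the list with the most negative calls. Of 23 tested, 22 had a negative interaction with a median of -1.23, and 4 were called, all negative, among them Insig1, Lss and Fdft1. Negative calls made up 0.934% of all tested genes. The median knockout effect was -0.62 in liver and -1.82 in tumors. Between WT and KO tumors 21 of the 23 fell, against 2.74% of all tested genes, and between WT and KO liver 6 did, against 5.29%. Summed FPKM of the list was 1839 to 2219 in WT livers, 1153 to 2040.5 in KO livers, 2134 to 2320.0 in WT tumors and 492 to 853 in KO tumors, so KO tumors alone lay below all other libraries.

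Insig1 retains the sterol sensor SCAP in the endoplasmic reticulum and is itself induced when sterols are low (chromosome 5, 28071363 to 28078662, GRCm38). Its FPKM was 77.5, 55.9 and 62.2 in WT livers, 77.3, 109 and 183 in KO livers, 101, 133 and 139 in WT tumors and 15.5, 31.1 and 43.8 in KO tumors. KO tumors were the only low group, and KO livers overlapped with WT livers and WT tumors. The interaction was -2.94 ± 0.52 (adjusted p = 0.0278). Lss, which encodes lanosterol synthase, had an FPKM of 10.7, 12.7 and 12.6 in WT livers, 11.1, 5.77 and 15 in KO livers, 41, 29.5 and 29.3 in WT tumors and 4.89, 3.86 and 6.61 in KO tumors, with WT tumors highest and KO tumors overlapping with KO liver 2. Its interaction was -2.25 ± 0.4 (adjusted p = 0.0278). Fdft1, squalene synthase, had an FPKM of 39.2, 50.2 and 40.3 in WT livers, 35.6, 31.8 and 51.5 in KO livers, 66.9, 65.3 and 59.4 in WT tumors and 18.3, 19.4 and 26.1 in KO tumors, with KO tumors lowest, and an interaction of -1.41 ± 0.28 (adjusted p = 0.0357).

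Other enzymes of the pathway fell in KO tumors without an interaction past the threshold. Idi1, isopentenyl diphosphate isomerase, had an FPKM of 29.4, 38.4 and 34 in WT livers, 10.3, 7.12 and 6.97 in KO livers, 22.5, 22.3 and 23.6 in WT tumors and 2.95, 2.84 and 2.46 in KO tumors. It fell in KO liver by 1.95 ± 0.16 (adjusted p = 0.000391) and in KO tumors by 2.67 ± 0.16 (adjusted p = 2.68e-05), and the interaction was -0.72 ± 0.22 (adjusted p = 0.0965). Sqle, squalene epoxidase, fell by 1.84 ± 0.34 (adjusted p = 0.0129) and by 2.2 ± 0.34 (adjusted p = 0.00604), with an interaction of -0.36 ± 0.48 (adjusted p = 0.688). No letters of the sterol regulatory element (TCACNCCAC, either strand, 1.05% of all promoters in the table) were found in the 250 bases before Insig1 or Lss. By gene they were found for 3 of 80 negative calls (3.75%), 0 of 99 positive calls and 1.42% of tested genes.

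Fatty acid and triglyceride synthesis genes had a median interaction of -1.4 with 19 of 21 negative. None was called by limma (lowest adjusted p = 0.0871), and 6 had an unadjusted p below 0.05, against 2603 of all 11671 tested genes. Median knockout effects were 0.49 in liver and -0.87 in tumors. Scd1, the stearoyl-CoA desaturase, ranged within single groups from 84.2 to 1413 in KO tumors, and its interaction was -1.81 ± 1.28 (adjusted p = 0.425). Fasn, fatty acid synthase, reached 728 in KO liver 3 against 135 and 52.1 in the other KO livers, and had an interaction of -2.22 ± 1.17 (adjusted p = 0.286). Srebf1, which encodes the transcription factor SREBP1, had an interaction of -1.85 ± 0.8 (adjusted p = 0.203).

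**Figure D5:**
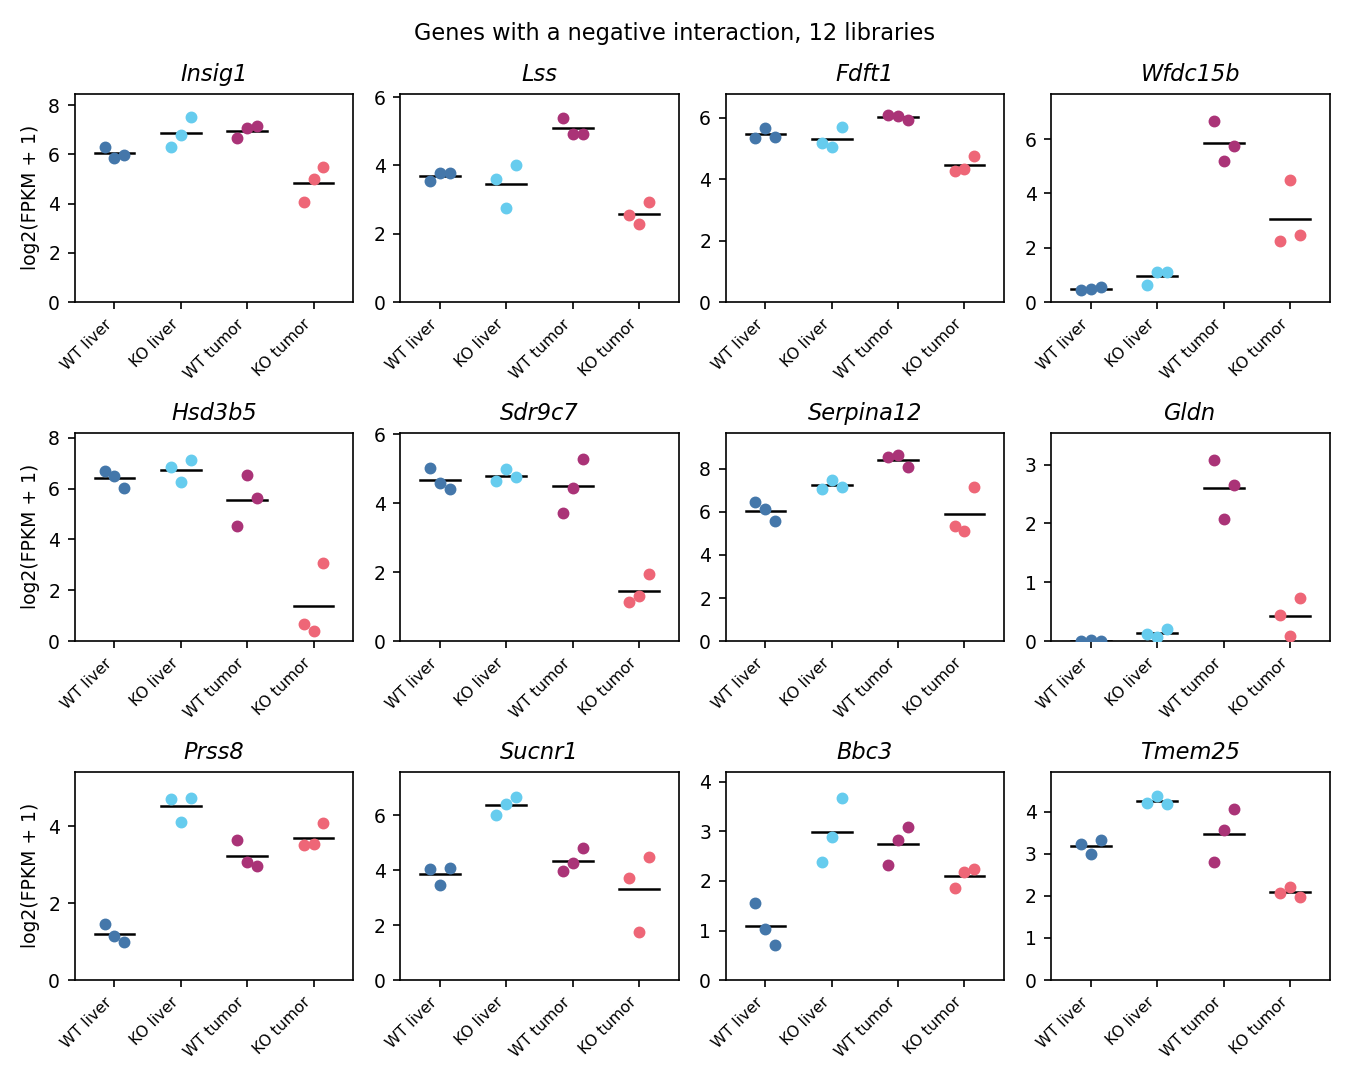
Log2(FPKM + 1) (y axis) of 12 genes with a negative interaction in each library (points) of the 4 groups (x axis), with group means as bars. KO tumors are the low group for Insig1, Hsd3b5 and Sdr9c7, WT tumors are the high group for Gldn and Serpina12, KO livers are the high group for Sucnr1, and WT livers are the low group for Prss8 and Bbc3.

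The largest negative interactions had several forms. Hsd3b5, a steroid dehydrogenase gene expressed in male liver (chromosome 3, 98618634 to 98630252, GRCm38), had an FPKM of 104, 89.4 and 63.8 in WT livers, 114, 76.6 and 139 in KO livers, 22, 92.4 and 48.4 in WT tumors and 0.61, 0.32 and 7.42 in KO tumors. KO tumors were below every other library, and the interaction was -4.52 ± 0.92 (adjusted p = 0.04). Of 19 male-biased liver genes, Hsd3b5 alone was called, against 0.934% of all tested genes called negative. The interaction was negative for 15 of the 19, with a median of -1.42. That median was -0.53 without WT tumor 2, -0.84 without WT liver 3, -0.85 without KO tumor 1 and -2.12 without WT tumor 1. WT tumors were uneven for this list, with a mean log2(FPKM + 1) over its members of 5.09 in WT tumor 1 against 7.19 and 6.94 in WT tumors 2 and 3. Elovl3, a fatty acid elongase of the same list, had an interaction of -5.41 ± 1.29 (adjusted p = 0.0553). Female-biased liver genes had a median of -0.60 over 12 tested, with no call by limma. An unadjusted p below 0.05 was found for 2 of the 12, against 2603 of all 11671 tested genes. Sdr9c7, a short-chain dehydrogenase gene, had an FPKM of 31.1, 22.8 and 20.4 in WT livers, 24, 30.6 and 26.2 in KO livers, 12.1, 20.8 and 38.1 in WT tumors and 1.2, 1.47 and 2.85 in KO tumors, with KO tumors alone low and an interaction of -3.15 ± 0.49 (adjusted p = 0.0208).

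WT tumors stood high for a further set. Serpina12, the gene of the serpin vaspin, had an FPKM of 87.4, 69.2 and 47 in WT livers, 132, 179.9 and 142 in KO livers, 380.1, 397 and 270.2 in WT tumors and 40.2, 34.2 and 142 in KO tumors, and KO tumors overlapped with the livers. Its interaction was -3.72 ± 0.63 (adjusted p = 0.0275). Wfdc15b, a WAP-domain protease inhibitor gene, had an FPKM of 0.35, 0.39 and 0.47 in WT livers, 0.55, 1.14 and 1.17 in KO livers, 101, 35.4 and 53.1 in WT tumors and 3.78, 21.6 and 4.49 in KO tumors, with WT tumors highest, KO tumors next and the livers lowest. Its interaction was -3.26 ± 0.73 (adjusted p = 0.049). Gldn, which encodes gliomedin, had 3.22 to 7.40 in WT tumors and at most 0.66 elsewhere, and an interaction of -2.3 ± 0.33 (adjusted p = 0.0187). Like Mst1r, Gldn had an FPKM of 1 or more only in the WT tumors. It was therefore tested only through the group where it was high, and its call is partly built in. Erich4 had 10.1 to 44.0 in WT tumors, 2.66 to 2.91 in KO tumors and at most 0.31 in the livers, and an interaction of -2.57 ± 0.53 (adjusted p = 0.0402).

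Genes that rose in KO liver with no tumor effect past the threshold form the largest negative set. Sucnr1, the receptor for extracellular succinate, had an FPKM of 15.6, 9.94 and 15.9 in WT livers, 63, 84.4 and 100 in KO livers, 14.7, 18 and 27.2 in WT tumors and 12.2, 2.35 and 21.5 in KO tumors. KO livers were above all other libraries, and the interaction was -3.52 ± 0.77 (adjusted p = 0.0451). Bbc3, which encodes the pro-apoptotic BH3-only protein PUMA, had an FPKM of 1.93, 1.03 and 0.63 in WT livers, 4.22, 6.43 and 11.8 in KO livers, 4.03, 6.11 and 7.52 in WT tumors and 2.63, 3.54 and 3.7 in KO tumors, with WT livers below all other libraries and an interaction of -2.56 ± 0.46 (adjusted p = 0.0278). It was the only called gene among 19 p53 targets tested, against 0.934% of all tested genes called negative. Of the 19, 8 had a positive and 11 a negative interaction with a median of -0.13. The sign of that median turned in 4 of the 12 fits without 1 library, those without WT liver 1, KO liver 2, WT tumor 2 or KO tumor 1, and it was at most 0.18. Cdkn1a and Mdm2, textbook p53 targets, had interactions of -0.13 ± 0.96 (adjusted p = 0.955) and 0.26 ± 0.3 (adjusted p = 0.645). Rpp40, a subunit of ribonuclease P, had 12 to 16.3 in KO livers and 0.91 to 4.06 elsewhere, and an interaction of -2.31 ± 0.35 (adjusted p = 0.0189).

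Tmem25, Chac2 and Cnot8 rose in KO liver and fell in KO tumors. Tmem25, a transmembrane protein gene, had an FPKM of 8.47, 6.95 and 9.02 in WT livers, 17.4, 19.9 and 17.2 in KO livers, 5.96, 10.8 and 15.8 in WT tumors and 3.21, 3.65 and 2.95 in KO tumors. KO tumors were below all other libraries and KO livers were above them. Its interaction of -2.45 ± 0.36 (adjusted p = 0.0187) was made of 1.07 ± 0.25 (adjusted p = 0.028) in liver and -1.38 ± 0.25 (adjusted p = 0.0105) in tumors. Chac2, a glutathione-degrading cyclotransferase gene, had an FPKM of 12.7, 9.89 and 13.8 in WT livers, 23.8, 34.2 and 22.1 in KO livers, 19, 13.5 and 15.8 in WT tumors and 10.6, 8.14 and 8.01 in KO tumors and an interaction of -1.85 ± 0.28 (adjusted p = 0.0192). Cnot8, a deadenylase subunit of the CCR4-NOT complex, had an FPKM of 18.4, 15.2 and 14.7 in WT livers, 20.7, 22.3 and 23.1 in KO livers, 21.5, 21.7 and 21.5 in WT tumors and 14.7, 12.8 and 14.8 in KO tumors and an interaction of -1.02 ± 0.17 (adjusted p = 0.0275). Phf1, a reader of H3K36 trimethylation and an accessory subunit of Polycomb complex PRC2, had an FPKM of 5.41, 5.97 and 5.85 in WT livers, 7.48, 11.8 and 9.48 in KO livers, 9.58, 12.3 and 10.7 in WT tumors and 8.93, 7.35 and 7.75 in KO tumors, with WT livers lowest and an interaction of -1.02 ± 0.22 (adjusted p = 0.0449). It was the only called gene among 25 tested H3K36 methylation enzymes and readers, against 0.934% of all tested genes called negative. Of the 25, 18 had a positive interaction (median 0.20). With libraries rescaled to a common sum, the interaction of Phf1 did not pass in limma (adjusted p = 0.138).

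Other lists had medians near 0 or no calls. Unfolded protein response genes had a median interaction of 0.11 over 22 tested, with no call by limma and 1 unadjusted p below 0.05, and the median was -0.11 without WT tumor 1 and -0.03 without KO liver 2. Their median knockout effects were -0.75 in liver and -0.68 in tumors. Hspa5, the endoplasmic reticulum chaperone BiP, had an interaction of 0.24 ± 0.31 (adjusted p = 0.684). Oxidative phosphorylation genes had a negative interaction for 29 of 32 with a median of -0.40, and cytosolic ribosomal protein genes for 27 of 29 with a median of -0.21. Limma called no gene of these lists, and 6 and 1 had an unadjusted p below 0.05. Over all 11671 tested genes 2603 had such a p, the share to set beside each count of this kind in this paragraph. Cell cycle genes had a median of 0.43 over 25 tested, with no call by limma and 2 at an unadjusted p below 0.05. The median turned to -0.11 without KO tumor 2 and was 0.78 without KO tumor 3, and the summed FPKM of the 28 members in the table was 149.7, 299 and 89.1 in KO tumors 1, 2 and 3. Mki67 and Top2a had interactions of 0.71 ± 0.46 (adjusted p = 0.387) and 0.35 ± 0.48 (adjusted p = 0.706). Afp, the fetal serum protein, had an FPKM of 1.7, 2.59 and 1.55 in WT livers, 42.2, 22.2 and 20.1 in KO livers, 472, 118 and 82.3 in WT tumors and 191, 6.29 and 137 in KO tumors, and its interaction of -4.78 ± 1.46 (adjusted p = 0.096) did not pass. Of the 35 lists, 11 held at least 1 called gene.

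Read the other way, the interaction is the difference between tumor and liver in KO less that in WT. Between tumor and liver 1105 genes (9.47%) changed in WT, 5.05% rising and 4.42% falling, and 3340 (28.6%) in KO, 15.1% rising and 13.6% falling. Of the 134 positive genes, 91 rose from liver to tumor in KO alone, 24 fell in WT alone, 14 fell in WT and rose in KO, 4 rose in both and 1 passed in neither. Of the 109 negative genes, 70 fell in KO alone, 23 rose in WT alone, 11 rose in WT and fell in KO, 4 rose in both and 1 passed in neither.

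The interaction also moved with transcript length. Exon length was available for 10075 of the tested entries (86.3%), placed by name in GENCODE vM21. Across these genes Spearman's rho with exon length was 0.205 for the interaction, -0.312 for the knockout effect in liver and -0.043 for that in tumors. In 5 length groups of about equal size the median interaction was -0.19, -0.03, 0.04, 0.09 and 0.16 from the shortest to the longest, and negative calls numbered 39, 24, 14, 8 and 9. Median exon length was 5160 bases for positive calls, 2814 for negative calls and 4255 for all placed genes. With each library's trend with length removed there were 234 calls against 236 on the placed genes, and 187 of them were called with the same sign in both. The list median was then -1.24 for cholesterol synthesis, 1.71 for AP-1 genes and 1.17 for extracellular matrix, against 1.34 for the last without this step. The cause of the length relation was not tested.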

How the data were processed

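Poly(A) RNA libraries without strand information were sequenced from 4 groups of 3 samples. The authors deposited 1 table of FPKM values per library, made with TopHat2 2.1.1 and Cufflinks 2.2.1 on mm10, per the submitters' processing notes; no source used here gives options or annotation. Groups came from the sample titles. Each table held 24553 entries under 23688 names, and repeated names stayed separate entries. Low values did not fall on whole-read steps (at most 0.89% on the commonest ratio), so depth and counting error are unknown.

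Values were analysed as log2(FPKM + 1), which understates changes of low genes. The 11671 entries with FPKM of 1 or more in at least 3 libraries were fitted with limma 3.58.1 (R 4.3.3) on all 12 libraries, 1 mean per group, with a variance trend. Tests were two-sided, with Benjamini-Hochberg adjustment over all entries and calls at an adjusted p below 0.05. The fit was tested on simulated data.

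Genes were named by rule: up to 12 called entries each way with the largest interaction and up to 6 each way with both knockout effects called in opposite directions. These needed a name found once, no unnamed model or small RNA, a highest group mean of FPKM 5 or more and no zero against 2 libraries at 5 or more. Added were up to 4 members per list by adjusted p, Setd2 and textbook genes. The members and the 35 lists (715 symbols, 612 tested) were chosen with earlier results of these data known. Cd74, H19, Glul and Ccnd1 were not tested under their own name. The text names only part of the genes picked; the rest are not reported here one by one and remain in the fit and the list counts. Alternatives were other pseudocounts, filters, scalings, weights and variance models, the replicate block, single-name entries, improbable zeros as missing, and leaving out each library. Restriction to placed entries and removal of the length trend were added after seeing the data. Genes were placed by name in GENCODE vM21 (GRCm38).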

Additional observations from a re-analysis of the deposited data

Results flagged for a closer look

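Of the genes picked by the naming rule, 50 were called in the interaction. For these the knockout effect differed between tumors and normal liver by the limma test of that difference. Mst1r, Nxn, Polr1a, Hpcal1 and Nqo1, named above for other reasons, were called too and are not among the 50.

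Where the knockout effect was more upward in tumors, the interaction on the log2(FPKM + 1) scale was 7.89 for Mt2, 3.72 for Srxn1, 3.63 for Tnfrsf12a, 3.57 for Cd14, 3.42 for Cybb, 3.37 for Ier3, 3.26 for Fkbp5, 3.26 for Socs3, 3.11 for Ppl, 2.79 for Slc37a1, 2.73 for Col4a1 and 2.71 for Abcc12. It was 2.70 for Mvp, 2.69 for Klf6, 2.60 for Col1a1, 2.50 for Tes, 2.42 for Gsta1, 2.13 for Il1b, 1.92 for Thbs1, 1.82 for Slc35d1, 1.82 for Tns1, 1.79 for Fosl2, 1.77 for Ets2 and 1.68 for Oasl2. It was 1.66 for Ildr2, 1.65 for Lbp, 1.62 for Myh9, 1.59 for Gbp3, 1.55 for Prox1, 1.55 for Col5a2, 1.34 for Txnrd1, 1.30 for Xaf1 and 1.27 for Ugdh.

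Where it was more downward in tumors, the interaction was -4.52 for Hsd3b5, -3.72 for Serpina12, -3.52 for Sucnr1, -3.26 for Wfdc15b, -3.15 for Sdr9c7, -2.94 for Insig1, -2.85 for Prss8, -2.57 for Erich4, -2.56 for Bbc3 and -2.45 for Tmem25. It was -2.31 for Rpp40, -2.30 for Gldn, -2.25 for Lss, -1.85 for Chac2, -1.41 for Fdft1, -1.02 for Cnot8 and -1.02 for Phf1.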

How the results depend on the processing

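The interaction gave 243 calls in the main result. It gave 56 with no filter on low values (18825 entries tested), 133 with a mean FPKM of at least 5, 115 with TPM, 608 with array quality weights and 158 with 1 weight per group. With the replicate number as a block it gave 114. Deviations from the group mean correlated between same-numbered libraries at r from -0.276 to 0.347 (18 pairs, 3 over 0.1). With 3 libraries per group this cannot decide whether the numbers pair the samples, and the labels do not say. Leaving out 1 library gave 7 to 1368 calls. Pseudocounts of 0.1 and 5, median-of-ratios and quantile scaling, no variance trend, robust moderation, single-name entries, zeros as missing and both length settings gave 218 to 280.

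Calls of the knockout effect in normal liver numbered 1144. They were 732 with no filter, 695 with a mean FPKM of at least 5, 489 with TPM, 2715 with array quality weights, 2846 with 1 weight per group, and 94 to 1543 without 1 library. Calls of the knockout effect in tumors numbered 1017, and were 522 with a mean FPKM of at least 5, 327 with 1 weight per group and 302 to 1793 without 1 library. The cause of these moves was not tested, beyond the fewer or more genes and libraries that the filters and omissions leave.

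For the 50 called genes picked by the naming rule, 679 of 781 values under the alternatives that kept all libraries stayed past the threshold. A further 102 kept their direction without passing, and 0 reversed, which the selection for a large interaction favors. Leaving out 1 library cost more calls: 46 of the 50 genes lost the call without KO liver 3. The call was lost for 45 without WT liver 2, 45 without WT liver 3 and 40 without WT tumor 3. All 50 kept it without KO tumor 3. List medians changed sign under another scaling for 2 lists that the report does not describe, ATF4 stress response and lipid droplet genes. Leaving out 1 library turned the sign of a described list's median for unfolded protein response (-0.11 to 0.26), p53 targets (-0.16 to 0.18) and cell cycle (-0.11 to 0.78). Without a change of sign it moved the median by over 1.5 times for male-biased (-2.12 to -0.53), female-biased (-1.02 to -0.32), fatty acid synthesis (-1.96 to -0.93), hepatocyte identity (-0.62 to 0), oxidative phosphorylation (-0.60 to -0.23), ribosomal protein (-0.38 to -0.11), NRF2 (0.49 to 1.05) and stellate cell genes (-0.51 to -0.04). Medians of cholesterol synthesis, AP-1, NF-kB, acute phase, interferon, matrix, H3K36, macrophage and neutrophil genes stayed within 1.5 times. Unknown depth limits what can be said of genes near an FPKM of 1.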
